A study of Mus musculus with 84 samples.

Results

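Liver gene expression in diet-induced obese (DIO) mice given BI 456906 at 30 nmol/kg was compared with that in DIO mice given vehicle, across all genes and with the large changes that semaglutide also produced. The comparison rests on 12 of the 84 RNA-sequencing libraries of the series, 6 livers per group, chosen by the tissue and treatment labels alone. All mice were male C57BL/6J mice, housed singly, fed a 60% high-fat diet, 22 weeks old at the start and dosed subcutaneously once a day for 30 days. BI 456906 is a peptide that activates 2 receptors, that of glucagon (GCGR) and that of glucagon-like peptide-1 (GLP-1R), and semaglutide activates GLP-1R only. Livers of mice on semaglutide at 20 and 100 nmol/kg, 6 of each, were used to show which changes were shared. The vehicle mice were on the same high-fat diet, and no lean, pair-fed or weight-matched group was among the liver libraries, so that an action of the compound on the liver and a change that follows feeding or bodyweight cannot be told apart.

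Glucagon is the pancreatic hormone of fasting. It acts on hepatocytes through GCGR, a receptor that raises cyclic AMP (cAMP) and thereby activates protein kinase A and the transcription factor CREB, and it is known to turn on glucose production and the breakdown of amino acids, to restrain fat synthesis and to promote fat oxidation. GLP-1R is known mainly from pancreatic islets and the brain, and its agonists reduce food intake.

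The 12 libraries held between 40479375 and 46477987 reads assigned to genes, with a median of 43682372, and in each of them 21.1% to 24.7% of the transcripts, counted in TPM (reads per gene corrected for length and scaled to a fixed total per library) as are all levels below, came from its 10 most abundant genes. Albumin and apolipoprotein E, both secreted by hepatocytes, were among the most abundant transcripts everywhere, while markers of skeletal muscle and kidney summed to at most 2.02 TPM and 0.26 TPM in any of the 12 libraries. The first principal component of the 12 libraries carried 62.1% of their variance and set the vehicle livers, at -36.9 to -22.35, apart from the BI 456906 livers, at 26.02 to 34.19. The summed hepatocyte markers were 82495 to 96482 TPM in vehicle livers and 103236 to 116916 TPM in BI 456906 livers. The 10 markers did not move together: 7 were higher and 3 lower in BI 456906 livers by the false discovery rate defined below. The sum includes albumin and Cps1, whose levels are given below. 1 BI 456906 liver, replicate 70, stood apart from the other 5 in sex-biased genes, and results that rest on it are given with and without it. In such bulk tissue fewer cells of a type and less RNA per cell cannot be told apart.

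The length of a gene's exons moved with treatment. With the genes cut into 5 equal classes of exon length, in the shortest class, up to 1993 bases, the median log2 fold change for BI 456906 against vehicle was -0.20, and in the longest, from 7064 bases, it was 0.28. The semaglutide groups had medians of -0.20 and -0.18 in the shortest class and of 0.25 in the longest at both doses, while between BI 456906 and semaglutide 100 nmol/kg the medians were -0.01 and 0.05. In the single libraries, long genes lay below short ones in every vehicle liver, with a gap of -0.91 to -0.25 on the log2 scale, and the BI 456906 livers had gaps of -0.01 to 0.27 with no overlap. The vehicle libraries thus stood apart from the BI 456906 and semaglutide libraries used here in this measure, and its part in the results was not tested. Where a gene named below changed its call once each library was centred within 20 bins of exon length, that value is given beside it. Counts over gene lists also changed with centring and are given so for some of the lists.

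**Figure D1:**
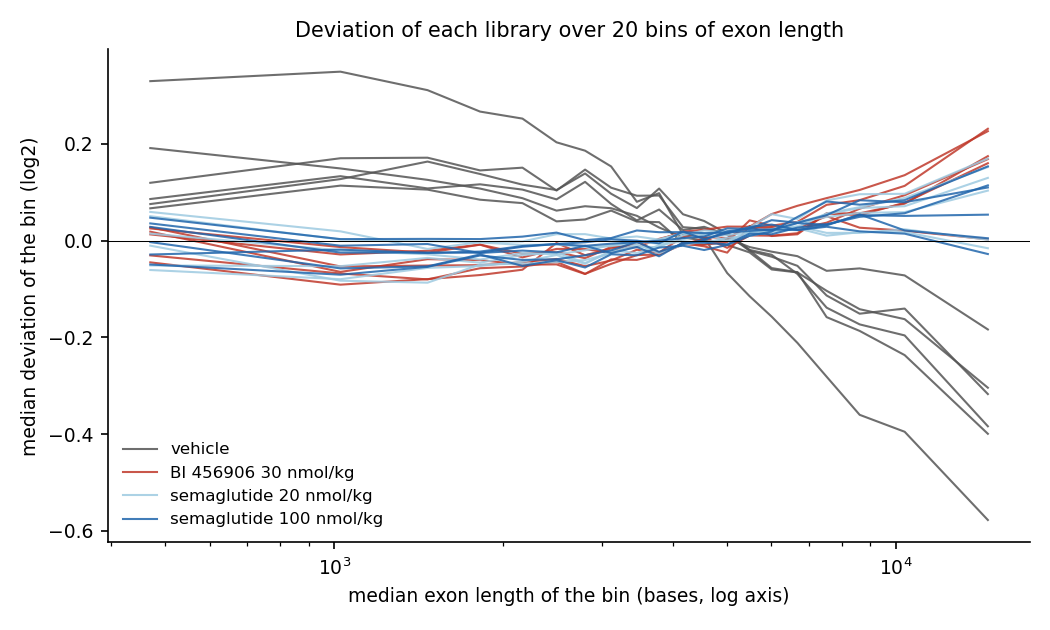
Median deviation of genes from their mean over the libraries (log2, vertical axis) in 20 bins of exon length (median bases per bin, log axis) for each of 24 liver libraries of 4 groups, 1 line per library. The vehicle lines fall from short to long genes, by 0.25 to 0.91 from the shortest to the longest bin, and the lines of the treated groups change by -0.08 to 0.27.

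Of the 48794 genes listed, 15964 had enough reads to be tested. Calls required a log2 fold change (log2 FC) of 1 or more in either direction and, from limma/voom over all genes tested, a false discovery rate (FDR) not above 0.05. For BI 456906 30 nmol/kg against vehicle, 956 genes were called higher, 5.99% of those tested, and 1101 lower, 6.90%. By FDR alone 4612 genes (28.9%) were higher and 4772 (29.9%) lower, with a median log2 FC over all genes of -0.03. Counts of list members by FDR below are to be read beside these shares. In 2969 genes (18.6%) the 6 treated TPM values lay above all 6 vehicle values, and in 1723 genes (10.8%) they lay below. Of the called genes, 659 of the 956 higher and 580 of the 1101 lower were apart in this way. Among the called genes, 206 rose and 252 fell by more than 2 on the log2 scale, and 74 rose and 80 fell by more than 3.

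Semaglutide was measured against the same 6 vehicle livers, so its values are given beside those of BI 456906 without being independent of them. At 20 nmol/kg it called 504 genes higher (3.16%) and 467 lower (2.93%), and at 100 nmol/kg 492 higher (3.08%) and 586 lower (3.67%). Genes called the same way for BI 456906 30 nmol/kg and both semaglutide doses numbered 362 higher (2.27%) and 321 lower (2.01%). In the direct comparison of the 2 compounds the vehicle livers do not enter the difference, but the shared fit uses them to estimate the spread. Against semaglutide 100 nmol/kg, BI 456906 called 98 genes higher (0.614%) and 155 lower (0.971%), and 663 (4.15%) and 893 (5.59%) by FDR alone. Against semaglutide 20 nmol/kg it called 116 genes higher (0.727%) and 213 lower (1.33%). Of the genes called for BI 456906 against vehicle, 220 of the 956 higher and 272 of the 1101 lower also differed from semaglutide 100 nmol/kg at an FDR of 0.05.

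**Figure D2:**
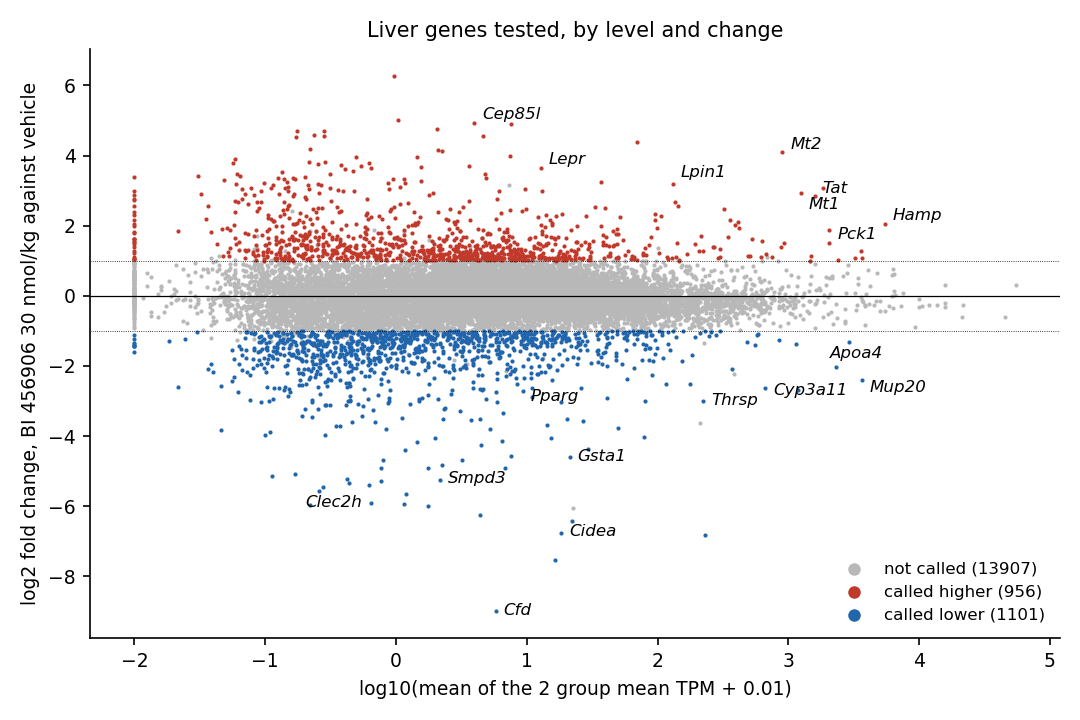
Log2 FC for BI 456906 30 nmol/kg against vehicle (vertical axis) over the mean level of each of the 15964 genes tested (TPM, log axis), 1 point per gene. The 956 genes called higher and the 1101 called lower lie on both sides of the 13907 not called, over the whole range of levels.

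The largest rises included Cux2 and Cyp2a4, which are female-predominant, and Ren1, the gene of renin, which had at most 2 reads in any vehicle liver. Cux2, a transcription repressor, went from 0.05 to 0.59 TPM to 1.22 to 24 TPM (log2 FC 4.57 ± 0.96, FDR 9.20e-05), and Cyp2a4, a steroid hydroxylase, from 2.05 to 14.5 TPM to 44.2 to 346 TPM (4.39 ± 0.95, FDR 1.45e-04), with replicate 70 highest for both and both still called without it. A metal-binding protein, a hormone receptor and a lipid enzyme also rose. Metallothionein 2 (Mt2), a small protein that binds zinc and copper, was at 37.4 to 244 TPM in vehicle livers, with a median of 89.2, and at 1252 to 1922 TPM in BI 456906 livers, with a median of 1869. All 6 treated livers lay above all 6 vehicle livers, by a log2 FC of 4.10 ± 0.48 (SE, n = 6 per group, FDR 3.84e-09), against 2.54 and 2.73 for semaglutide 20 and 100 nmol/kg. Its neighbour Mt1 went from a median of 259 to 2327 TPM, a log2 FC of 2.92 ± 0.35, and here the difference between BI 456906 and semaglutide 100 nmol/kg passed the test (FDR 0.0088), which it did not for Mt2 (FDR 0.064). The leptin receptor (Lepr), whose soluble form hepatocytes release into blood, was at 1.46 to 2.59 TPM (median 1.75) in vehicle livers and 15.3 to 34.5 TPM (median 23.2) in BI 456906 livers. This was a log2 FC of 3.65 ± 0.32 (FDR 1.18e-11) without overlap, larger than the 2.43 of semaglutide 100 nmol/kg (FDR of the difference 0.00114). Lipin 1 (Lpin1), a phosphatidate phosphatase that also acts as a partner of nuclear receptors in fasting liver, rose from 19.4 to 30.6 TPM (median 23.3) to 143 to 287 TPM (median 254). Its log2 FC of 3.19 ± 0.46 (FDR 2.56e-07) stood beside 3.33 and 2.87 for the semaglutide doses, and the difference from the higher dose did not pass the test (FDR 0.743).

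Several of the largest rises were in genes of low level. Cep85l, a centrosomal protein gene, had 0.06 to 0.37 TPM in vehicle livers and 5.05 to 10.1 TPM in BI 456906 livers, a log2 FC of 4.94 ± 0.64 (FDR 2.90e-08) with 4.69 and 4.53 for semaglutide. Lmbrd2, a membrane protein, went from a median of 0.39 to one of 6.67 TPM, a log2 FC of 3.70 ± 0.50. Both were apart in all 12 livers, and neither differed from semaglutide 100 nmol/kg beyond the test (FDR 0.382 and 0.287).

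The largest falls included genes of fat storage, a ceramide enzyme, an immune lectin and several major urinary proteins. Cfd, which encodes adipsin, a complement protease made mainly by fat cells, was at 5.44 to 18.7 TPM (median 11.7) in vehicle livers and at 0 to 0.04 TPM in BI 456906 livers. Over the groups 2048 reads stood against 1, a ratio of 2051 with a 95% interval of 368 to 81065 from counting error only. Adipocyte markers as a list, which includes Cfd itself, summed to 21.2 to 38.2 TPM in vehicle and 12.2 to 16.4 TPM in treated livers. Of the 7 markers 4 were under 1 TPM in all 12. The fall of Cfd is thus part of the fall of that sum, and the part of fat cells in it was not tested. Cidea, a protein of the surface of lipid droplets that appears in steatotic liver, had a median of 42.5 TPM with a lowest value of 6.18 in vehicle livers, and a median of 0.195 TPM with a highest value of 2.99 in treated livers. Its log2 FC was -6.75 ± 1.32 (FDR 3.51e-05), or -7.38 without replicate 71, the treated liver at 2.99 TPM, against -2.72 and -3.19 for semaglutide. The difference from the higher dose did not pass (FDR 0.0986). Smpd3, a neutral sphingomyelinase that makes ceramide, fell from a median of 4.1 to 0.095 TPM (log2 FC -5.24 ± 0.76), and Clec2h, a C-type lectin that binds a receptor of NK cells, fell from 2.08 to 0.015 TPM (-5.93 ± 0.74). Mas1, the receptor of angiotensin 1-7, had 157 reads in the 6 vehicle livers and 0 in the 6 treated ones, at least 52.4-fold lower with a floor of 3 reads over the group. Every treated liver lay below every vehicle liver for Cfd, Cidea, Smpd3 and Clec2h.

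**Figure D3:**
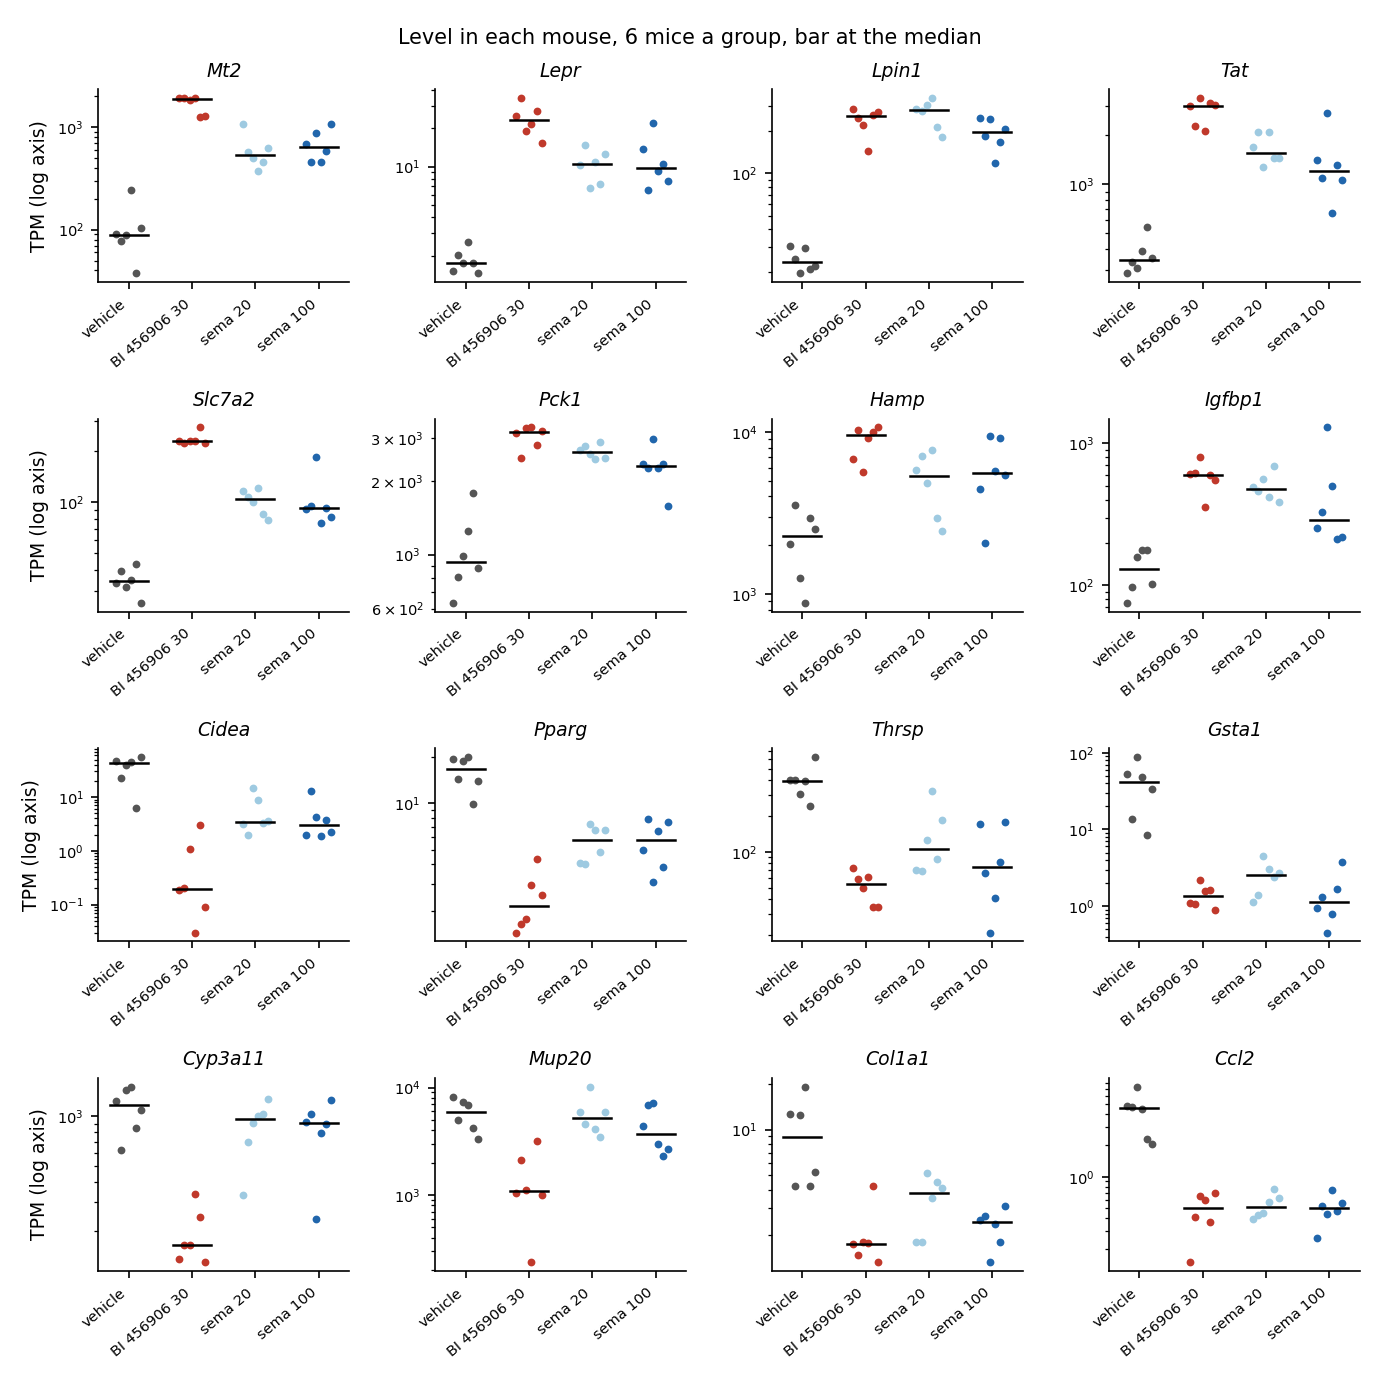
Level of 16 genes (TPM, log axes) in each liver of the vehicle, BI 456906 30 nmol/kg, semaglutide 20 nmol/kg and semaglutide 100 nmol/kg groups, 6 points per group with a bar at the median. Mt2, Lepr, Lpin1, Tat, Slc7a2 and Pck1 have all BI 456906 points above all vehicle points, and Cidea, Pparg, Thrsp, Gsta1, Cyp3a11 and Mup20 have all of them below.

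Among the 37 tested genes of cAMP and glucagon receptor signalling, 18 were higher and 10 lower by FDR, with 5 and 3 called, and the median log2 FC was 0.15, or -0.03 after centring on exon length. The receptor itself was lower. Gcgr was at 216 to 230 TPM in vehicle livers and 160 to 184 TPM in BI 456906 livers, without overlap, a log2 FC of -0.48 ± 0.07 (FDR 1.67e-07), against -0.14 and -0.18 for semaglutide (FDR of the difference from the higher dose 0.0028). Gnas, the stimulatory G protein subunit that couples such receptors to adenylyl cyclase, fell by 0.43 ± 0.04 on the same scale. Glp1r had too few reads to be tested.

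Of the regulators in this list that cAMP is known to induce, 3 with large rises are described here. Ppargc1a, the coactivator PGC-1alpha of the fasting programme, was at 1.07 to 1.84 TPM (median 1.63) in vehicle livers and at 5.09 to 7.68 TPM (median 7.44) in treated livers. The groups did not overlap, with a log2 FC of 1.92 ± 0.14 (FDR 2.46e-13) beside 1.19 for both semaglutide doses (FDR of the difference 8.63e-05). Sik1, a kinase that restrains CREB coactivators, went from a median of 5.51 to 21.8 TPM, a log2 FC of 1.72 ± 0.27 that semaglutide at 0.49 and 0.32 did not reach (FDR of the difference 4.21e-04). Nr4a1, an immediate early nuclear receptor, had a median of 1.66 TPM in vehicle and 6.71 TPM in treated livers, with 1 treated liver at 30 TPM. Its log2 FC was 2.77 ± 0.73 (FDR 0.0013), with 1.69 and -0.05 for semaglutide. In the other direction, Rgs16, an inhibitor of G protein signalling, went from 32.7 to 87 TPM in vehicle livers to 15.5 to 34.4 TPM in treated livers, which overlap, a log2 FC of -1.20 where semaglutide 20 nmol/kg gave 1.45. With sample quality weights the log2 FC of Rgs16 was -0.91 and it was no longer called.

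Promoter sequence is shown for 2 of these regulators and for Pck1, the gluconeogenic gene described after them, because the short form of the cAMP response element to which CREB binds, TGACG, was found there. The windows are RefSeq promoter sequence of GRCm38.p6, read 5′ to 3′ on the strand of the gene, and the capitals mark CGTCA, which is TGACG on the opposite strand.
Pck1, chr2:173152953-173153017, plus strand: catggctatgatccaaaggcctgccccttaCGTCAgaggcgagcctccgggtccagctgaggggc
Ppargc1a, chr5:51567740-51567804, minus strand: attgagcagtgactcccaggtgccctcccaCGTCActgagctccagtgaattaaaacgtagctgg
Nr4a1, chr15:101266596-101266840, plus strand: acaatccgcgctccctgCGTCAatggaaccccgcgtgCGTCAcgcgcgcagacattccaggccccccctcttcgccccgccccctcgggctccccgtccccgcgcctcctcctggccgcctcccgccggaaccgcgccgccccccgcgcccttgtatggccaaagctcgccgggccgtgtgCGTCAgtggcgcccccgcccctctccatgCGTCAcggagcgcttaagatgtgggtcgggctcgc

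The match began 90 bases before the transcription start in Pck1 and 49 bases before it in Ppargc1a, and Nr4a1 held 4 matches, at 233, 213, 69 and 40 bases before its start. In the 250 bases before the start, on either strand, TGACG was found in 17.8% of all 32851 promoters and in 25.9% of the 11411 promoters of tested genes. It was present in 150 of 565 promoters of genes called higher (26.5%) and in 120 of 732 of genes called lower (16.4%). The longer palindrome TGACGTCA, which contains TGACG, was in 2.62% of promoters of tested genes, 3.89% of those called higher and 1.23% of those called lower. Of the cAMP signalling list, 12 of the 31 genes with a promoter in the table held TGACG and 0 the palindrome. TGACG was in 4 of 56 such genes of the amino acid breakdown list and in 4 of 14 of the gluconeogenesis list. For TGACG the share among genes called higher is thus close to that of all tested genes.

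Genes of glucose production moved in both directions. Of the 15 tested, 6 were higher and 5 lower by FDR and 2 were called, both higher, and the median log2 FC was -0.02. Pck1, which makes phosphoenolpyruvate from oxaloacetate, was at 632 to 1783 TPM (median 933) in vehicle livers and 2485 to 3322 TPM (median 3177) in treated livers. That is a log2 FC of 1.52 ± 0.17 (FDR 1.04e-09) without overlap, beside 1.32 and 1.11 for semaglutide, and the difference from the higher dose did not pass the test (FDR 0.12). Slc25a25, a carrier that loads ATP into mitochondria, rose from a median of 124 to 319 TPM, a log2 FC of 1.29 against 0.63 and 0.24 (FDR of the difference from 100 nmol/kg 7.83e-04). Foxo1, the insulin-restrained transcription factor of this pathway, had a log2 FC of 0.98 ± 0.12 (FDR 4.26e-09), just under the size set for a call, which it reached at 1.00 to 1.04 when BI 456906 replicate 68, 70 or 71 or vehicle replicate 44 or 47 was left out. Pcx, pyruvate carboxylase, which feeds the pathway its first intermediate, was lower without overlap, with a median of 333 TPM in vehicle and 228 TPM in treated livers (log2 FC -0.67, and -0.35 for semaglutide 100 nmol/kg).

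Of 31 tested genes of glycolysis and the pyruvate switch, 18 were lower and 5 higher by FDR, with 3 and 1 called. Pklr, the liver pyruvate kinase and last step of glycolysis, was at 263 to 333 TPM (median 278) in vehicle livers and 47.4 to 87 TPM (median 56.2) in treated livers. No values overlapped, and the log2 FC of -2.50 ± 0.20 (FDR 1.08e-12) was larger in size than the -1.47 of semaglutide 100 nmol/kg (FDR of the difference 3.29e-04). Pdk1, a kinase that shuts pyruvate out of the citric acid cycle, fell from a median of 49.3 to 20.5 TPM, a log2 FC of -1.22 ± 0.11 against -0.34 and -0.49 for semaglutide (FDR of the difference 2.09e-05). The rise was in Pfkfb2, which sets the level of fructose 2,6-bisphosphate, from 3.75 to 23.1 TPM in the median (log2 FC 2.32 ± 0.24). In glycogen metabolism 9 of 19 genes were lower and 2 higher by FDR. Ugp2, which makes the UDP-glucose used for glycogen, had a log2 FC of -1.16 (-0.81 and -1.04 for semaglutide), the branching enzyme Gbe1 -1.10 and the liver phosphorylase Pygl -0.75, so that enzymes of both synthesis and breakdown were among the lower ones.

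Enzymes of amino acid breakdown and urea synthesis and carriers for amino acid uptake were among the abundant genes that rose most, several of them beyond their level under semaglutide. In the breakdown list 21 of 66 genes were higher by FDR (31.8%, near the 28.9% of all genes tested) and 26 lower (39.4%). After centring on exon length 25 were higher and 24 lower. The calls were 9 and 2, and the median log2 FC of the list was -0.04. The summed level of the list nevertheless went from 21966 to 28286 TPM in vehicle livers to 33037 to 36040 TPM in treated livers, without overlap. Against semaglutide 100 nmol/kg, 18 of its genes were higher and 3 lower by FDR. Tat, tyrosine aminotransferase and a classical target of glucagon and glucocorticoids, was at 285 to 548 TPM (median 345) in vehicle livers and 2118 to 3362 TPM (median 3005) in BI 456906 livers. Its log2 FC of 2.84 ± 0.26 (FDR 1.95e-11) came without overlap and stood above the 2.09 and 1.71 of semaglutide (FDR of the difference from the higher dose 0.00455). Mat1a, which makes the methyl donor S-adenosylmethionine from methionine, rose from a median of 2085 to 4502 TPM (log2 FC 1.07 ± 0.12, and 0.35 for semaglutide 100 nmol/kg, FDR of the difference 1.66e-04). Sdsl, a serine dehydratase-like enzyme, rose from 16.7 to 44.9 TPM in the median (log2 FC 1.48 ± 0.24). The 2 genes called lower in the list were Bhmt, which remethylates homocysteine with betaine, and Ddo, which oxidises D-aspartate. Bhmt was at 2958 to 5351 TPM in vehicle and 1222 to 2124 TPM in treated livers, a log2 FC of -1.31 ± 0.28 whose difference from semaglutide did not pass (FDR 0.071).

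In the urea cycle and ammonia list, 7 of 14 genes were higher and 6 lower by FDR, with 4 and 3 called, and the summed level rose from 4950 to 6315 TPM to 10621 to 11423 TPM. Cps1, the enzyme that commits ammonia to the cycle, was at 331 to 623 TPM (median 450) in vehicle livers and at 1104 to 1470 TPM (median 1260) in treated livers. The log2 FC was 1.38 ± 0.19 (FDR 1.33e-07), with 0.91 and 1.06 for semaglutide and no difference past the test from the higher dose (FDR 0.333). Arg1, the arginase that releases urea, went from 866 to 1164 TPM up to 1797 to 2187 TPM, a log2 FC of 0.99 ± 0.15 beside 0.32 for semaglutide 100 nmol/kg (FDR of the difference 0.00334). Arg1 was called after centring on exon length, at 1.16, and without BI 456906 replicate 67 or 70 or vehicle replicate 48, at 1.01 to 1.09, while Slc25a15, the mitochondrial ornithine carrier, was called at 1.01 and not after centring, at 0.94, nor without BI 456906 replicate 68 or 71 or vehicle replicate 45 or 46, at 0.97 to 1.00. The 3 genes called lower were the ammonia transporter Rhbg, from a median of 10.2 to 1.79 TPM (log2 FC -2.37), Ddah1, which breaks down methylated arginines (log2 FC -1.67), and Car5a, the mitochondrial carbonic anhydrase that supplies bicarbonate to the cycle (log2 FC -1.02, not called after centring, at -0.81, nor without BI 456906 replicate 71 or 72 or vehicle replicate 44, 47 or 48, at -0.99 to -0.89). Glutamine synthetase Glul was lower by FDR, from 759 to 441 TPM in the median (log2 FC -0.83).

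Of 29 tested amino acid transporters, 12 were higher and 4 lower by FDR, 5 were called, all higher, and 8 were higher against semaglutide 100 nmol/kg. Slc7a2, a carrier of the cationic amino acids arginine, lysine and ornithine, was at 25.5 to 43.5 TPM (median 34.2) in vehicle livers and at 223 to 276 TPM (median 228) in treated livers. The log2 FC of 2.68 ± 0.18 (FDR 6.24e-14) was without overlap and exceeded the 1.44 of both semaglutide doses (FDR of the difference 2.02e-05 at 100 nmol/kg). Slc38a2, the sodium-coupled neutral amino acid transporter that cells induce when amino acids run short, rose from a median of 17.2 to 85.7 TPM, and Slc3a1, the heavy chain of a cystine and dibasic amino acid carrier, from 17.9 to 71.9 TPM. Their log2 FCs were 2.26 ± 0.17 and 1.85 ± 0.17, both larger than with semaglutide 100 nmol/kg (FDR of the differences 0.00426 and 3.14e-04).

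Genes of amino acid shortage moved less evenly. In the list of ATF4 targets and serine synthesis 10 of 27 genes were higher and 4 lower by FDR, with 3 and 1 called. Asns, asparagine synthetase, had 0.1 to 0.98 TPM in vehicle and 0.57 to 5.51 TPM in treated livers, which overlap, at a log2 FC of 2.88 ± 0.75 (FDR 0.00125). Trib3, a pseudokinase induced by the same factor, was lower, from a median of 5.76 to 2.64 TPM (log2 FC -1.28 ± 0.15). Chaperones of the endoplasmic reticulum were higher in 12 of 27 and lower in 5 by FDR, with 1 called, lower. In the NAD and nicotinamide list 6 of 22 genes were higher and 11 lower by FDR, with 2 and 1 called. The 2 called higher were Nnmt, which methylates nicotinamide, and Acmsd, which diverts tryptophan carbon away from NAD (log2 FC 1.71 ± 0.27). Nnmt kept its call in all 24 alternative settings of the processing, at log2 FCs of 2.27 to 2.74. The gene called lower was Aox3, an aldehyde oxidase that acts on nicotinamide metabolites (log2 FC -1.36 ± 0.18, FDR of the difference from semaglutide 100 nmol/kg 2.52e-05).

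Genes of fat and sterol synthesis were mostly lower. In de novo lipogenesis 21 of 35 genes were lower and 5 higher by FDR, with 6 and 2 called, and the median log2 FC was -0.42, beside -0.19 and -0.34 for semaglutide 20 and 100 nmol/kg. With centring on exon length 20 were lower and 6 higher, with 8 and 1 called. Thrsp, a lipogenic protein that responds to carbohydrate and thyroid hormone, was at 244 to 628 TPM (median 397) in vehicle livers and 34.1 to 72.8 TPM (median 54.2) in treated livers. The groups were apart, at a log2 FC of -3.00 ± 0.42 (FDR 1.05e-07) beside -1.73 and -2.46 for semaglutide, and the difference from the higher dose did not pass (FDR 0.432). Elovl6, which elongates palmitate, fell from a median of 22.2 to 5.88 TPM (log2 FC -2.01) and Acss2, which activates acetate for lipogenesis, from 72 to 24.5 TPM (log2 FC -1.95 ± 0.24), and both differed from semaglutide 100 nmol/kg (FDR 0.0242 and 0.0194). Scd1, the stearoyl-CoA desaturase, was the most abundant of the list and fell from 1690 to 672 TPM in the median (log2 FC -1.36 ± 0.34), with -0.16 and -0.79 for semaglutide. In cholesterol synthesis and the other targets of SREBP2, 15 of 28 genes were lower and 2 higher by FDR and 7 were called, all lower, or 4 without vehicle replicate 48 and 4 after centring on exon length. They included Nsdhl (log2 FC -1.78 ± 0.28) and squalene synthase Fdft1 (-1.39 ± 0.22), each apart between the groups. By FDR 16 genes of this list were lower and 3 higher after centring, with a median log2 FC of -0.56 in place of -0.46.

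The lipid droplet list was among those with the most falls. Of 29 genes 20 were lower and 4 higher by FDR, 10 and 1 were called, the median log2 FC was -0.53, and the summed level went from 5422 to 9180 TPM to 3478 to 5588 TPM. Pparg, the nuclear receptor that drives fat storage when it is expressed in liver, was at 9.95 to 19.9 TPM (median 16.6) in vehicle livers and 1.44 to 4.32 TPM (median 2.16) in treated livers. Its log2 FC of -2.71 ± 0.31 (FDR 2.71e-09) without overlap was larger in size than the -1.53 of semaglutide 100 nmol/kg (FDR of the difference 0.0226). Mogat1, an acyltransferase of triglyceride synthesis, fell from a median of 10.6 to 1.31 TPM (log2 FC -3.02), and the fatty acid receptor Cd36 from 134 to 38 TPM (log2 FC -1.82). The droplet coats divided. Plin5, which ties droplets to mitochondria in oxidative tissue, rose from 84.3 to 116 TPM (median 96.5) to 199 to 331 TPM (median 312), a log2 FC of 1.47 ± 0.21 (FDR 1.29e-07) against 0.68 for semaglutide 100 nmol/kg (FDR of the difference 0.0123). Plin2, the most abundant coat of the liver droplet, had medians of 777 and 1089 TPM with overlapping groups and did not pass the test (log2 FC 0.26, FDR 0.256).

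Among 43 genes of fatty acid oxidation, ketogenesis and the targets of PPARalpha, 13 were higher and 12 lower by FDR. These shares, 30.2% and 27.9%, were close to the 28.9% and 29.9% of all genes tested. After centring on exon length 19 of the 43 were higher and 13 lower. Over all 15964 genes tested centring gave 4563 higher and 4564 lower, in place of 4612 and 4772. In the list 6 genes were called, all higher, and the median log2 FC was 0.06. Ppara itself rose from a median of 46.2 to 116 TPM with overlapping groups (log2 FC 1.46, beside 1.58 and 1.49 for semaglutide). Cyp4a14, the fatty acid omega-hydroxylase that serves as a marker of PPARalpha activity, was at 627 to 1252 TPM (median 808) in vehicle livers and at 2300 to 3737 TPM (median 3426) in treated livers. It differed without overlap by a log2 FC of 1.89 ± 0.25 (FDR 3.18e-08), and Ehhadh, the peroxisomal bifunctional enzyme, by 1.57, from a median of 280 to 1043 TPM. Neither differed from semaglutide 100 nmol/kg beyond the test (FDR 0.272 and 0.128). Fabp1, the abundant fatty acid carrier of hepatocyte cytosol, was lower, from 10157 to 13912 TPM down to 5990 to 7706 TPM (log2 FC -0.88).

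Of 30 lipoprotein and lipase genes, 8 were higher and 10 lower by FDR, with 1 and 3 called. The FDR shares, 26.7% and 33.3%, were near the 28.9% and 29.9% of all genes tested. After centring on exon length 12 of the 30 were higher and 11 lower. Apoa4, an apolipoprotein that rises with liver triglyceride, was at 1973 to 5002 TPM (median 4073) in vehicle livers and at 556 to 1899 TPM (median 876) in treated livers, just apart (log2 FC -2.02 ± 0.29, FDR 2.12e-07). Pltp, the phospholipid transfer protein, fell from a median of 148 to 40.5 TPM, a log2 FC of -1.85 where semaglutide gave -0.33 and -0.58 (FDR of the difference from the higher dose 0.00191). Lpl, lipoprotein lipase, fell with overlap from a median of 7.97 to 2.17 TPM (log2 FC -1.73 ± 0.30). Apoe, the most abundant apolipoprotein transcript of these livers, went from 50199 to 56783 TPM down to 35886 to 39544 TPM (log2 FC -0.59). In the bile acid list 9 of 34 genes were higher by FDR (26.5%, near the 28.9% of all genes tested) and 14 lower (41.2%). Against semaglutide 100 nmol/kg 11 of its genes were lower. Cyp39a1, the oxysterol hydroxylase of the alternative route, rose from a median of 16 to 48.5 TPM (log2 FC 1.56 ± 0.18), and Slc51b, a subunit of the basolateral bile acid exporter, was at 0.11 to 1.22 TPM and then at 0 to 0.41 TPM (log2 FC -3.12 ± 0.62 on 21 or fewer reads per liver).

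**Figure D4:**
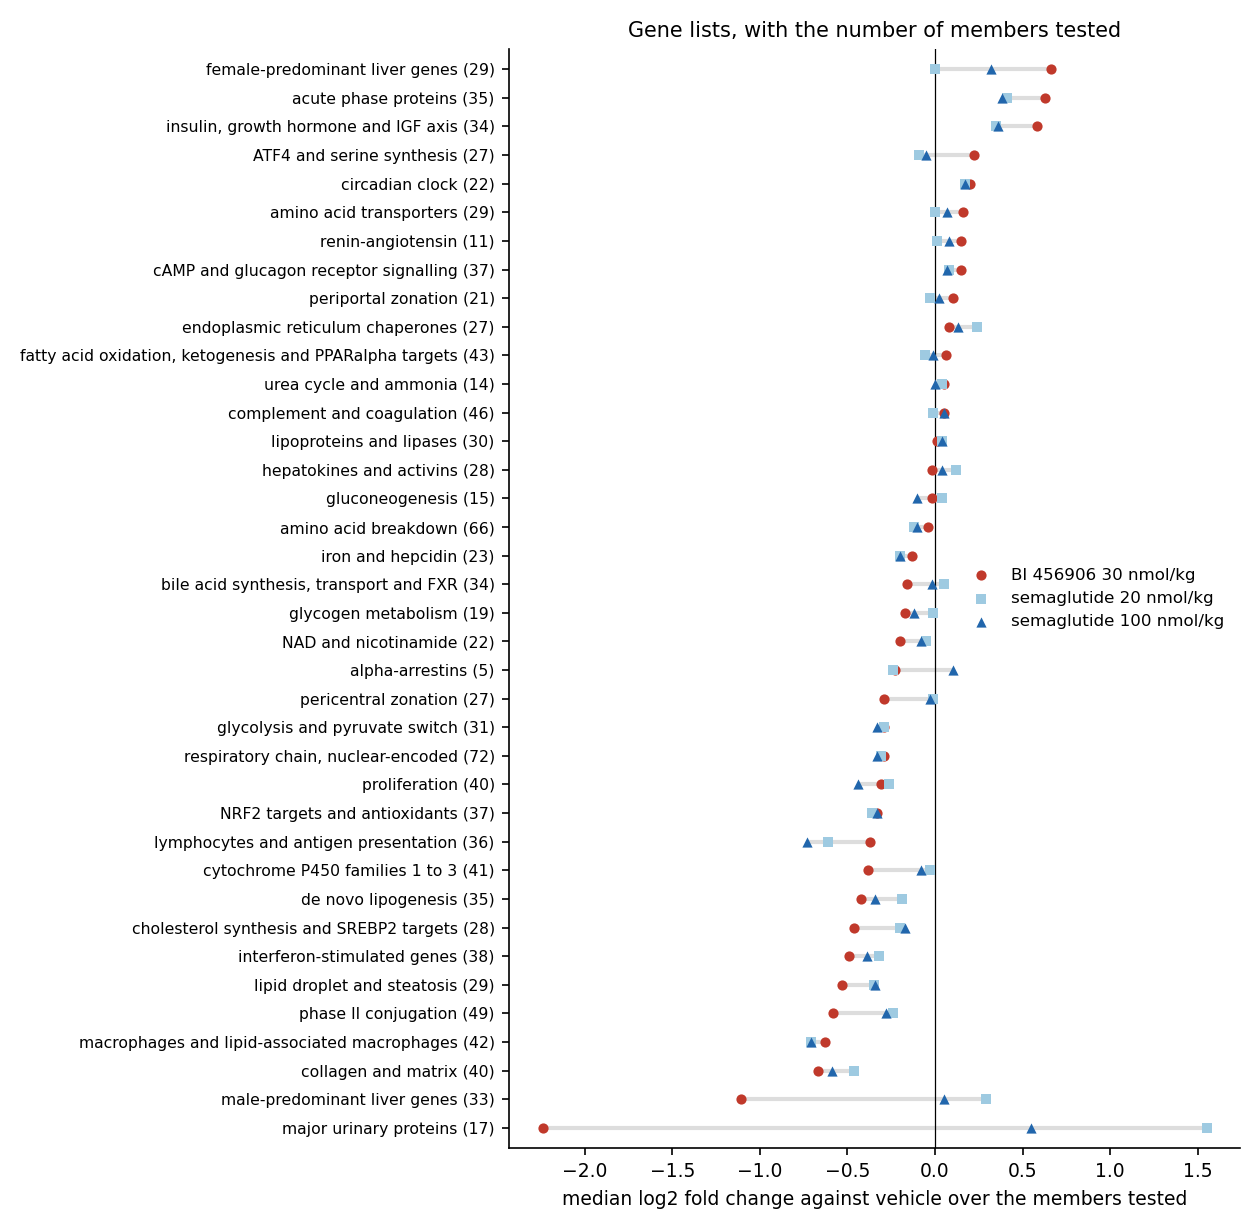
Median log2 FC of the tested genes in each of 38 gene lists (horizontal axis, number tested in brackets) for BI 456906 30 nmol/kg, semaglutide 20 nmol/kg and semaglutide 100 nmol/kg, each against the same vehicle livers. For BI 456906 the major urinary proteins lie lowest, at -2.24, where both semaglutide points are above 0, and the respiratory chain, the macrophage and the collagen lists have 3 points close together below 0.

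Drug-metabolising enzymes were lower, and more so than with semaglutide. Of 41 cytochrome P450 genes of families 1 to 3, 24 were lower and 5 higher by FDR, with 12 and 3 called, and the median log2 FC was -0.38, beside -0.03 and -0.08 for semaglutide. Centring on exon length gave 18 lower and 7 higher, with 10 and 4 called. Without BI 456906 replicate 71 the higher ones were 8 in place of 5. Against semaglutide 100 nmol/kg 12 were lower and 2 higher. Cyp3a11, the main drug-metabolising enzyme of mouse liver, was at 627 to 1518 TPM (median 1166) in vehicle livers and at 129 to 336 TPM (median 165) in treated livers. The groups were apart, with a log2 FC of -2.62 ± 0.35 (FDR 5.34e-08) where semaglutide gave -0.50 and -0.57 (FDR of the difference from the higher dose 1.07e-04). Among phase II conjugation genes 30 of 49 were lower and 5 higher by FDR, 11 were called, all lower, and the summed level went from 15687 to 17274 TPM to 11452 to 12858 TPM. After centring on exon length 27 were lower and 7 higher, with 8 and 1 called. The carboxylesterases Ces2c and Ces1g, which hydrolyse esters of drugs and lipids, fell from medians of 25.1 and 194 TPM to 2.4 and 36.4 TPM (log2 FC -3.69 ± 0.36 and -2.50), and both differed from semaglutide 100 nmol/kg (FDR 4.51e-04 and 3.42e-07). Ugt1a9, a glucuronosyltransferase, went the other way, from 59.6 to 88 TPM in the median, with a log2 FC of 0.87 beside -0.90 for semaglutide 20 nmol/kg (FDR of the difference from 100 nmol/kg 4.72e-06). Ugt1a9 was called after centring on exon length, at 1.05, and it shares exons with 8 other Ugt1a genes, so that reads may not be split cleanly among them.

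Single glutathione transferases showed the largest falls among antioxidant genes, while other members of that family moved little or rose. In the NRF2 and antioxidant list 21 of 37 genes were lower and 7 higher by FDR, with 6 and 2 called, and the medians were -0.33 for BI 456906 and -0.36 and -0.33 for semaglutide. Gsta1 was at 8.54 to 88 TPM (median 41.3) in vehicle livers and at 0.89 to 2.17 TPM (median 1.35) in treated livers, and Gstm3 at 18.4 to 70.2 TPM (median 47) and 5.03 to 9.3 TPM (median 6.3). Neither had overlapping groups. The log2 FCs were -4.61 ± 0.79 for Gsta1, beside -3.94 and -4.79 for semaglutide, and -2.63 ± 0.36 for Gstm3, beside -2.49 and -2.65 (FDR of the differences from 100 nmol/kg 0.943 and 0.988). Gsta1 has a near-identical copy, Gsta2, which was also called lower (log2 FC -1.45). Gsta3 had a log2 FC of -0.24, and Gstp2, from a median of 4.99 to 7.93 TPM, had 0.99 ± 0.29, with a call at 1.22 after centring on exon length and at 1.02 to 1.10 without BI 456906 replicate 70, 71 or 72 or vehicle replicate 45, 46 or 47.

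Liver genes that differ between the sexes were among those that set BI 456906 apart from semaglutide. Pulsatile growth hormone acting through STAT5B is known to maintain the male pattern of mouse liver, which includes the major urinary proteins (MUPs), small pheromone carriers secreted in large amounts. Of 33 tested male-predominant genes 13 were lower and 2 higher by FDR, with 12 and 1 called, and the median log2 FC was -1.11, beside 0.29 and 0.05 for semaglutide. Of 29 female-predominant genes 12 were higher and 5 lower, with 8 and 4 called, and the median was 0.66, beside 0.00 and 0.32. Against semaglutide 100 nmol/kg 12 male-predominant genes were lower and 1 higher, and 7 female-predominant genes were higher. The summed female-predominant genes were at 639 to 997 TPM in vehicle livers, at 768 to 1396 TPM in 5 treated livers and at 3119 TPM in replicate 70. Replicate 70 also had the lowest male-predominant sum, 5432 TPM against 12752 to 17406 TPM in the other 5. The male-predominant sum of the vehicle livers was 10155 to 19389 TPM, a range that holds those 5 treated livers. Without that liver 12 male-predominant genes were lower and 2 higher, with a median of -1.03, and 10 female-predominant genes were higher and 6 lower, with a median of 0.40.

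Of the MUP genes 8 of 17 tested were lower by FDR and 7 were called, or 6 and 6 without replicate 70. Mup20, the sex pheromone darcin, was at 3315 to 8176 TPM (median 5939) in vehicle livers and at 236 to 3165 TPM (median 1089) in treated livers. The highest treated liver lay just below the lowest vehicle liver, and the log2 FC was -2.40 ± 0.39 (FDR 2.28e-06), with -0.14 and -0.57 for semaglutide (FDR of the difference from the higher dose 0.00174). Reads that map to a single place are few for several of the copies. Mup19 had 67 to 490 such reads in vehicle livers and 0 to 4 in treated livers, and Mup18 had 18 to 132 and 0 to 4, so the size of their fitted falls (log2 FC -6.82 ± 2.04 and -4.06 ± 1.16) depends on very small counts. Mup17, with 124 to 1948 and 0 to 6 reads, was called at an FDR of 0.0316, which became 0.0509 to 0.0606 when any single BI 456906 liver was left out. The copies are near identical, so a value belongs to the family more surely than to the copy. Mup3, by contrast, had overlapping values with medians of 3050 and 4724 TPM and did not pass the test (log2 FC 0.27, FDR 0.354).

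Beyond the MUPs, Serpina12, the male-predominant adipokine vaspin, fell from 12.3 to 18.5 TPM (median 13.6) to 1.6 to 3.94 TPM (median 2.46), a log2 FC of -2.52 against -0.38 and -0.78 for semaglutide (FDR of the difference 4.06e-04). Serpina1e, an alpha-1-antitrypsin copy that males express, rose, from a median of 252 to 3845 TPM, but replicate 70 was at 133 TPM, among the vehicle values. Its log2 FC of 3.08, or 3.91 without that liver, stood beside 2.73 and 2.81 for semaglutide. Of the female-predominant genes, the organic anion transporter Slc22a26 rose with wide spread, from 1.29 to 3.55 TPM to 2.04 to 60.4 TPM (log2 FC 2.41 ± 0.72, FDR 0.00428, and 1.89 without replicate 70, the highest liver). Hao2, a hydroxyacid oxidase, had 5 treated livers at 0.04 to 0.13 TPM and replicate 70 at 3.11 TPM, above all vehicle livers. Its log2 FC of -2.52, or -3.36 without that liver, passed with limma/voom but not with edgeR (-0.71, FDR 0.42) or DESeq2 (-0.73, FDR 0.455).

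**Figure D5:**
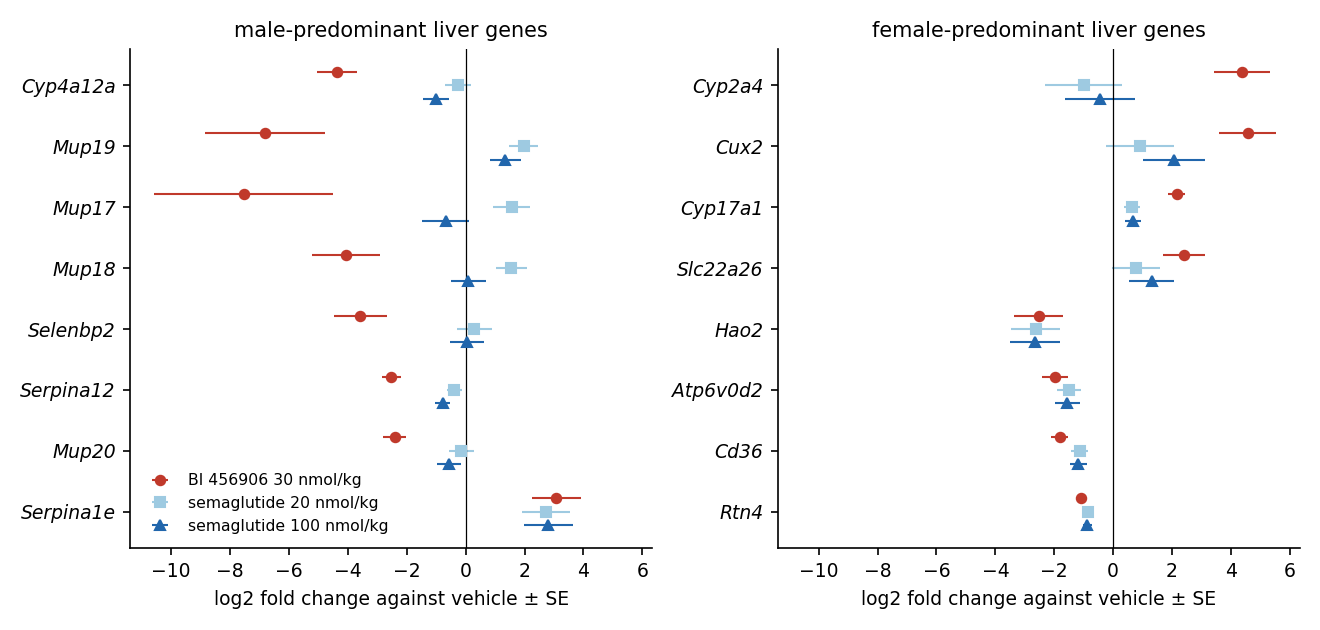
Log2 FC against vehicle (points) with its SE (bars) for 8 male-predominant and 8 female-predominant liver genes under BI 456906 30 nmol/kg, semaglutide 20 nmol/kg and semaglutide 100 nmol/kg. The male-predominant genes other than Serpina1e lie below 0 for BI 456906, and the female-predominant ones lie on both sides of 0.

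The insulin, growth hormone and IGF list was higher in 18 of 34 genes and lower in 5 by FDR, with 7 and 1 called. Its median log2 FC was 0.58, which became 0.15 after centring on exon length. Igfbp1, the IGF-binding protein that insulin suppresses, was at 75.1 to 178 TPM (median 131) in vehicle livers and at 356 to 801 TPM (median 604) in treated livers. The log2 FC of 2.17 ± 0.32 (FDR 3.69e-07) came without overlap, beside 1.56 for semaglutide 100 nmol/kg, and Igfbp2, from a median of 275 to 715 TPM, had 1.13 beside 1.10 and 1.34. Egfr, the epidermal growth factor receptor, rose from 19.7 to 72.4 TPM in the median (log2 FC 1.75, with 1.83 and 1.77 for semaglutide). On the growth hormone side the receptor gene Ghr was lower with overlapping values, from a median of 229 to 199 TPM (log2 FC -0.42, FDR 2.34e-04), and Stat5a and Stat5b, which carry its signal, had log2 FCs of -1.09 and -0.68.

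Among hormones that the liver secretes, 10 of 28 hepatokine genes were higher and 7 lower by FDR, with 4 and 1 called. Fgf21, the fasting hormone that acts on fat and brain, was at 16.1 to 32.6 TPM (median 22.9) in vehicle livers and at 27.6 to 50.4 TPM (median 40.9) in treated livers. These values overlap, and the log2 FC of 0.63 ± 0.24 (FDR 0.0221) was below the size of a call and did not differ from semaglutide 100 nmol/kg beyond the test (FDR 0.84). Enho, which encodes adropin, rose from a median of 5.58 to 24.5 TPM (log2 FC 2.01, with 1.78 and 2.01 for semaglutide), and Fgl1, a fibrinogen-like protein, from 233 to 765 TPM (log2 FC 1.63, with 1.22 and 1.32).

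In the circadian clock list 10 of 22 genes were higher and 4 lower by FDR, with 4 and 1 called. Per1, a clock repressor that cAMP and glucocorticoids also induce, was at 5.52 to 16.4 TPM (median 7.79) in vehicle and at 30.8 to 39.1 TPM (median 34.7) in treated livers. It differed without overlap by a log2 FC of 1.89 ± 0.19 (FDR 1.13e-10), above the 1.12 of semaglutide 100 nmol/kg (FDR of the difference 0.00552). Ciart, another repressor of the clock, rose from 1.99 to 17.6 TPM in the median (log2 FC 3.04, with 1.73 and 1.02), and Dbp, a clock output factor, fell from 10.4 to 4.8 TPM (log2 FC -1.20 ± 0.17). Clock and Rora were called at 1.10 and 1.11 and lost the call after centring on exon length, at 0.58 and 0.59. The hour at which each liver was taken is not in the labels.

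Acute phase proteins, which hepatocytes secrete into plasma, were more often higher than lower. Of 35 acute phase genes 19 were higher and 5 lower by FDR, 8 and 1 were called, the median log2 FC was 0.63 and, after centring, 0.81, and the summed level rose from 37836 to 45985 TPM to 66701 to 78469 TPM. Hamp, the iron hormone hepcidin, was at 879 to 3565 TPM (median 2280) in vehicle livers and at 5672 to 10662 TPM (median 9594) in treated livers. That is a log2 FC of 2.05 ± 0.41 (FDR 4.68e-05) without overlap, beside 1.19 and 1.40 for semaglutide (FDR of the difference from the higher dose 0.361). Tfrc, the transferrin receptor that brings iron into the cell, rose from a median of 2.87 to 9.07 TPM (log2 FC 1.46), and Id1, a target of the BMP signal that induces hepcidin, from 13.3 to 34 TPM (log2 FC 1.35). In the complement and coagulation list, by contrast, 13 of 46 genes were higher and 9 lower by FDR, or 20 and 7 after centring, with a median of 0.05 and 1 gene called. That gene was C3, the central complement protein, at 1349 to 1816 TPM and then at 2862 to 3588 TPM, a log2 FC of 1.02 ± 0.10 against 0.50 and 0.67 for semaglutide (FDR of the difference 0.0154), and it was not called without BI 456906 replicate 67 or vehicle replicate 45 or 48, at 0.97 to 1.00. Lcn2, a siderophore-binding protein of inflammation, was called at 1.22 with an FDR of 0.0357, which rose to 0.0575 to 0.085 when BI 456906 replicate 67, 69 or 71 or vehicle replicate 44 or 47 was left out. Orm3, an acid glycoprotein, was the gene of the list called lower, from a median of 8.52 to 0.345 TPM (log2 FC -4.26 ± 0.64, with -1.38 and -1.31 for semaglutide). Alb, the transcript of highest mean level over the 12 livers, went from 43236 to 54898 TPM to 58327 to 66758 TPM (log2 FC 0.30).

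Genes of inflammation and scarring were lower, with values close to those under semaglutide. Of 42 macrophage genes 25 were lower and 1 higher by FDR, with 16 and 1 called, and the medians were -0.63 for BI 456906 and -0.71 for both semaglutide doses. Ccl2, the chemokine that recruits monocytes, was at 2.06 to 7.36 TPM (median 4.54) in vehicle livers and at 0.15 to 0.7 TPM (median 0.505) in treated livers. No values overlapped, at a log2 FC of -3.19 ± 0.53 (FDR 3.08e-06) beside -2.97 and -3.09 for semaglutide. The cytokine Tnf fell from a median of 0.355 to 0.115 TPM (log2 FC -2.36 ± 0.58) on 63 or fewer reads per liver. Cd163, the haemoglobin scavenger receptor of resident macrophages, was the gene called higher, from 0.58 to 7.29 TPM (median 5.37) to 4.41 to 29.6 TPM (median 24.9), with overlap (log2 FC 2.25 ± 0.78, FDR 0.0131). The general markers of Kupffer cells and macrophages summed to 134 to 326 TPM in vehicle and 102 to 266 TPM in treated livers, and 1 of 8 was lower by FDR. Lymphocyte and antigen presentation genes were lower in 12 of 36, a share close to the 29.9% of all genes tested, and T and NK cell markers summed to 2.01 to 12.4 TPM and 4.39 to 5.73 TPM. Of the interferon-stimulated genes 22 of 38 were lower and 2 higher, and 14 were lower without vehicle replicate 45. Among them were Cxcl10, a chemokine for T cells, from a median of 10.6 to 2.35 TPM (log2 FC -2.28), and the GTPase Gbp2, from 8.77 to 3.04 TPM with overlap (log2 FC -1.32 ± 0.33).

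Of 40 collagen and matrix genes 29 were lower and 2 higher by FDR, 12 were called, all lower, and the median log2 FC was -0.67, beside -0.46 and -0.59 for semaglutide. Col1a1, the main collagen of scar tissue, was at 4.25 to 19.2 TPM (median 8.91) in vehicle livers and at 1.32 to 4.21 TPM (median 1.75) in treated livers. The highest treated liver reached just below the lowest vehicle liver, and the log2 FC was -2.19 ± 0.40 (FDR 1.14e-05), with -1.43 and -1.95 for semaglutide. Col3a1 fell from a median of 24.6 to 4.5 TPM (log2 FC -2.39), and Timp1, the inhibitor of matrix proteases, from 1.62 to 0.17 TPM with overlap (log2 FC -3.05 ± 0.63). Markers of stellate cells and fibroblasts, a list that itself includes Col1a1 and Col3a1, were lower in 7 of 10 and higher in 1 by FDR. They summed to 388 to 624 TPM and 380 to 460 TPM. Cholangiocyte markers were lower in 4 of 7 and summed to 48.7 to 183 TPM and 25.8 to 69.9 TPM. The part of these cells in the falls was not tested. Fn1, the fibronectin that hepatocytes secrete, was higher by FDR, at 452 to 533 TPM and 696 to 825 TPM, with a log2 FC just under the size of a call that passed it, at 1.01 to 1.08, without BI 456906 replicate 70, 71 or 72 or vehicle replicate 44, 46 or 47.

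Of 40 proliferation genes 15 were lower and 6 higher by FDR, with 5 and 2 called, and 9 were lower without BI 456906 replicate 68 or vehicle replicate 45. Cdkn1a, the cell cycle inhibitor p21, rose from 12.5 to 63.6 TPM (median 38.1) to 105 to 199 TPM (median 188). Its log2 FC of 2.29 ± 0.40 (FDR 6.88e-06) was without overlap, beside 2.09 and 1.85 for semaglutide. Cdc20, which drives exit from mitosis, fell from a median of 0.67 to 0.29 TPM (log2 FC -1.54 ± 0.28) on 47 or fewer reads per liver.

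The nuclear-encoded respiratory chain showed many small falls. Of 72 genes 63 were lower and 1 higher by FDR, 1 was called, higher, and the median log2 FC was -0.29, beside -0.31 and -0.33 for semaglutide, where 70 were lower at each dose. The summed level went from 22630 to 25905 TPM to 20010 to 21662 TPM. These are short genes, and after centring on exon length 38 were lower and 4 higher, with a median of -0.12. Ndufb3, a complex I subunit, was at 108 to 130 TPM in vehicle and at 74.8 to 86 TPM in treated livers, a log2 FC of -0.57, or -0.43 after centring, while the complex IV subunit Cox4i1 had -0.25 and, after centring, -0.03.

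Genes placed along the liver lobule by earlier work moved on both sides. Of 21 periportal genes 9 were higher and 7 lower by FDR, with 5 and 4 called, and of 27 pericentral genes 6 were higher and 15 lower, with 1 and 6 called. The median log2 FCs were 0.10 and -0.29, and semaglutide 100 nmol/kg had -0.03 in the pericentral list. Cyp2f2, a marker of periportal hepatocytes, was at 532 to 631 TPM (median 602) in vehicle livers and at 69.5 to 176 TPM (median 168) in treated livers. It fell without overlap by a log2 FC of -2.10 ± 0.16 (FDR 8.40e-13), where semaglutide gave -0.46 at both doses (FDR of the difference from the higher dose 6.99e-09). On the pericentral side Aldh1a1, a retinal dehydrogenase, fell from a median of 1173 to 525 TPM (log2 FC -1.27, with -0.65 for semaglutide 100 nmol/kg, FDR of the difference 0.00133). Cyp2e1, the most abundant pericentral gene, had a log2 FC of -0.36. The periportal sum, to which Pck1, Arg1 and Cps1 belong, went from 16211 to 18121 TPM to 23804 to 25706 TPM.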

How the data were processed

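Poly(A) RNA of liver was sequenced, and 42 liver libraries of 7 groups with 6 mice each entered the fit. The labels describe a low-input single-end kit and the study's methods a directional paired-end one, and which was used was not settled here. The authors' processing notes name FastQC 0.11.5, STAR 2.5.2b, featureCounts 1.5.1 and RSEM 1.3.0 with mm10/GRCm38. The deposited read table holds a signal, namely reads per gene divided by 1 factor per library: every value was a whole multiple (tolerance 0.01) of the library's smallest value, 0.8494 to 1.076 in the 12 libraries, so that whole reads could be recovered for 100% of values. The deposited TPM table, made by the authors, gave the levels. Gene names came from GENCODE M21 for 48434 of 48794 identifiers. Of the 32830 genes not tested, 20750 had no read in the 12 libraries and 244 had a mean of at least 1 TPM. For 348 of 15927 genes the reads per TPM and base were under 0.2 of the median, with near-identical copies or overlapping genes among them, and 8 of 2057 called genes moved the other way in mean TPM.

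The signal was analysed with limma 3.58.1 (voom with a pseudocount of 0.5, TMM, filterByExpr of edgeR 4.0.16, R 4.3.3) with a mean for each of the 7 groups. FDR is the Benjamini-Hochberg adjusted p over all 15964 genes tested. The limma/voom fit was also run on data simulated from the vehicle means and the fitted dispersions of these libraries. Replicate livers differed by more than counting noise, with a chi-square per degree of freedom of at least 17.01 in every pair. The libraries of a group are separate mice, and p-values measure the spread between them. Named genes were the 15 largest rises and 15 largest falls among called genes of at least 1 TPM whose groups did not overlap, the 8 largest of each called for BI 456906 and both semaglutide doses, up to 4 rises and 4 falls and the 2 most abundant genes of each list, the 10 most abundant genes, and 6 genes of prior interest (Nnmt, Gcgr, Glp1r, Fgf21, Ren1 and Cux2), with their near-identical or overlapping copies. The members and lists were chosen with earlier results of these data known. Alternatives were DESeq2 1.42.0, edgeR's quasi-likelihood test, other scalings and filters, recovered reads, TPM with pseudocounts of 0.1 and 1, quality weights, the 12 libraries alone, each library left out in turn and, chosen after seeing the data, centring within 20 bins of exon length. Epididymal fat libraries were not used here.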

Additional observations from a re-analysis of the deposited data

Results flagged for a closer look

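In each group of 6 livers the highest and lowest value of every gene named in the text were set against the rest of the group by Dixon's test at its 95% critical value. Of 250 groups 37 held such a liver, 14.8%. Chance gives about 1 in 20 groups only where values are normally distributed and groups independent. The test used TPM without a log, and the genes share the same livers, so the 2 rates are not directly comparable. Replicate 70 of BI 456906 was the liver in 14 of the 37 groups. It was high for Cux2 (24 TPM), Cyp2a4 (346 TPM), Ddah1 (33.6 TPM), Gcgr (184 TPM), Ugp2 (131 TPM), Pygl (196 TPM), Ugt1a9 (143 TPM), Slc22a26 (60.4 TPM), Hao2 (3.11 TPM), Stat5b (21.2 TPM) and Orm3 (1.54 TPM), and low for Serpina1e (133 TPM), Mup3 (3182 TPM) and Cyp2f2 (69.5 TPM). Replicate 71 of BI 456906 was high for Cfd (0.04 TPM, from the 1 read of that group), Cidea (2.99 TPM), Smpd3 (0.21 TPM), Lpl (3.57 TPM), Slc7a2 (276 TPM) and Col1a1 (4.21 TPM). Of the other BI 456906 livers, replicate 68 was high for Gstp2 (17.3 TPM), replicate 69 was high for Gbe1 (55.6 TPM) and low for Acmsd (8.06 TPM), and replicate 72 was high for Nr4a1 (30 TPM).

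Among vehicle livers, replicate 45 was low for Cyp39a1 (12.7 TPM), Mat1a (1616 TPM) and Dbp (7.9 TPM) and high for Tnf (1.21 TPM). Replicate 47 was high for Ehhadh (423 TPM), Slc22a26 (3.55 TPM) and Fgl1 (318 TPM). Replicate 48 was low for Aox3 (52 TPM) and Stat5b (16 TPM) and high for Ndufb3 (130 TPM) and Cyp2a4 (14.5 TPM). Replicate 46 was high for Mt2 (244 TPM), and replicate 43 was low for Scd1 (1039 TPM).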

How the results depend on the processing

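The counts of called genes depended most on how low genes were treated. Requiring at least 10 counts in each of the 12 libraries gave 626 genes higher and 651 lower, 214 and 145 called for BI 456906 and both semaglutide doses, and 96 lower against semaglutide 100 nmol/kg in place of 155 and 65 higher and 140 lower against 20 nmol/kg in place of 116 and 213. limma on log2(TPM + 1), which shrinks the change of low genes, gave 401 and 343, 121 and 66, 46 and 71 against 100 nmol/kg, and 39 and 100 against 20 nmol/kg, and log2(TPM + 0.1) gave 182 shared falls in place of 321 and 74 genes higher against 20 nmol/kg. Sample quality weights gave 244 genes lower against semaglutide 100 nmol/kg. DESeq2 called 971 genes higher and 1124 lower and edgeR 952 and 1129. Scaling by library size alone gave 849 and 1226, so that the share of higher genes among the calls was 40.9% in place of 46.5%, with a median log2 FC over all genes of -0.10 in place of -0.03. Centring on exon length gave 823 and 1029, and 1657 of the 2057 calls were retained. With 1 library left out, the genes called higher ran from 918 to 1085 and lower from 1030 to 1234, those past the FDR from 4485 to 4660 and from 4423 to 4762, the shared ones from 309 to 428 and from 263 to 421, and the genes higher and lower against semaglutide from 86 to 105 and 131 to 160 at 100 nmol/kg and from 107 to 127 and 166 to 218 at 20 nmol/kg. Of 178 named genes that were called, 130 kept the call in every one of the 22 to 24 settings in which they were tested, and of 151 not called 14 were called in at least 1. No call was reversed in direction. Genes not called could change sign between settings, as Cyp2b9 did, with log2 FCs of -0.38 to 0.60. The cause of these differences was not tested beyond what each setting changes by construction. No paired analysis was possible because the replicate numbers in the labels are not shared between groups. Depth limits the genes with few reads, such as the Mup copies, Tnf, Cdc20 and Slc51b.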

Other observations

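Unclassified and non-coding transcripts formed a group of changes not described above. Of 322 tested genes of the annotation's class TEC, gene models that await experimental proof, 106 (32.9%) were called higher for BI 456906 30 nmol/kg and 27 (8.39%) lower, beside 5.99% and 6.90% of all genes tested. Semaglutide 20 and 100 nmol/kg called 85 and 82 of them higher against the same vehicle livers, and 4 were called higher in BI 456906 against semaglutide 100 nmol/kg. After centring on exon length 118 were called higher. Their median level was 0.204 TPM. Long intergenic non-coding RNAs and antisense RNAs leaned the other way, with 59 of 355 (16.6%) and 56 of 415 (13.5%) called lower and 32 (9.01%) and 21 (5.06%) called higher. Whether a TEC model is a transcript of its own or part of the unprocessed RNA of a gene around it was not tested, and antisense genes can share reads with their partner if the counting did not use strand.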
